A study of Mus musculus with 6 samples.

Results

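The Nr4a nuclear receptors, the Egr zinc finger factors and the Nab corepressors were examined as 9 genes, Nr4a1, Nr4a2, Nr4a3, Egr1, Egr2, Egr3, Egr4, Nab1 and Nab2, in RNA sequencing of primary mouse CD4+ T cells. They were chosen by gene family and taken by name from a table of read counts for 48440 Ensembl genes, with symbols from GENCODE M21 on GRCm38. All 9 were in the table and passed the filter on low counts, which kept 13314 genes. Egr4 passed through the stimulated libraries alone, since it had 0 reads in every unstimulated one. The cells came from spleen and lymph nodes of wild-type mice, and no source used here gives their strain, age or number. In both groups they had been activated for 3 days on plate-bound antibodies against CD3 and CD28 and then grown for 5 days in interleukin 2. The unstimulated group (3 libraries) was then left at rest, and the stimulated group (3 libraries) met anti-CD3/CD28 again for 4 hours. The comparison thus gives the state of these genes after a repeated receptor stimulus in cells that had all been activated once before.

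Nr4a proteins are orphan nuclear receptors: they act without a known ligand that switches them on, and their activity largely follows the amount of protein made. Egr proteins bind GC-rich sites through zinc fingers. Nab1 and Nab2 have no DNA-binding domain and attach to Egr proteins, whose transcriptional activity they mostly repress. In T cells, receptor signals through calcium and the MAP kinase ERK induce Nr4a and Egr genes quickly, and both families are known for roles in restraint of activated T cells, in tolerance and in thymic selection.

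Total counts ran from 29897720 to 30252923 per library, so depth hardly differed. Levels are read counts relative to library size (CPM) scaled by TMM factors, given as mean ± SD with n = 3 per group. Markers are counted as risen or fallen at an adjusted p of 0.05 or less in the edgeR test described below. By that test 38.4% of all tested genes rose and 39.1% fell. Of 8 CD4 T cell markers 7 fell after stimulation, Cd4, Cd3g and Cd3e among them, with a summed level of 4248 to 4585 CPM at rest and 2291 to 2407 CPM after. The 8 B cell markers, mostly Ighm, summed to 1413 to 2868 CPM at rest and 731 to 1282 CPM after, and 7 of them fell, Cd79b, Cd22 and Ms4a1 among them. The 10 myeloid markers summed to 5.09 to 6.46 CPM at rest and 26.5 to 55.2 CPM after: of 5 tested, Mpeg1 (1.88 ± 0.264 at rest, 33.8 ± 13.8 CPM after) and Itgax rose while Adgre1 and Flt3 fell, and Cd14 was near 0 (0.0735 ± 0.0724 at rest, 0.0701 ± 0.0356 CPM after). The 5 NK cell markers summed to 2.48 to 20.3 CPM at rest and 58.7 to 113 CPM after: of 2 tested, Eomes rose (8.03 ± 10.04 at rest, 82.6 ± 27.1 CPM after) and Klrk1 was not called, and Ncr1, Klrb1c and Klra8 had 0 to 3 reads per library. Of the 2 CD8 markers, Cd8a rose (3.83 ± 0.328 at rest, 8.22 ± 0.424 CPM after) and Cd8b1 fell (18.6 ± 1.801 at rest, 14.7 ± 2.21 CPM after). Of 7 tested transcripts of the mitochondrial genome 3 rose, mt-Nd2 (467 ± 72.4 at rest, 735 ± 96.1 CPM after), mt-Nd1 (769 ± 123 at rest, 1176 ± 179 CPM after) and mt-Nd5 (886 ± 143 at rest, 1173 ± 153 CPM after), and 0 fell, with sums of 8019.8 to 11059 CPM at rest and 9563 to 12755 CPM after. The part of other cells and of RNA quality in the results was not tested. In bulk RNA, fewer cells of a type and less RNA per cell cannot be told apart.

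The sequences just upstream of RefSeq start sites of the genes are shown first, and their part in the changes was not tested. For Nr4a1, Nab2 and the Egr2 window shown, the start site lies inside the annotated span of the gene. RefSeq (GRCm38.p6) gave promoter windows of 250 bases before to 50 bases after the start site for 7 members, all but Egr1 and Egr3. They were searched on both strands for 8 motifs: the cAMP response element CRE (TGACGTCA), its core (TGACG, which the full CRE holds on both strands), the CArG box of serum response factor, the EGR site (GCGNGGGCG), the NBRE bound by Nr4a monomers (AAAGGTCA), an NFAT core (GGAAAA), the MEF2 box and the TATA box (TATAAA). The stretches below lie upstream of the start site and outside annotated exons, 5′ to 3′ on the gene's strand, with every motif match inside them in capitals. The stretch of Nr4a3 is cut short where an annotated exon begins and shows 3 of its 4 CRE cores. In Nr4a2 the MEF2 box overlaps a TATA match on the other strand. Egr2 has 5 windows from several start sites, and one that holds both the CArG box and the CRE cores is shown.
Nr4a1, chr15:101266596-101266845, plus strand: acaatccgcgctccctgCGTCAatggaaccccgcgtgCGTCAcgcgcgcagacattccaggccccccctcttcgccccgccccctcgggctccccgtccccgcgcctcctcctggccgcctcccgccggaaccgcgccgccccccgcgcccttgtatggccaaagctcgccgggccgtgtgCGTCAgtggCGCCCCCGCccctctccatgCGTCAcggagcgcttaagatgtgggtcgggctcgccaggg
Nr4a2, chr2:57124004-57124253, minus strand: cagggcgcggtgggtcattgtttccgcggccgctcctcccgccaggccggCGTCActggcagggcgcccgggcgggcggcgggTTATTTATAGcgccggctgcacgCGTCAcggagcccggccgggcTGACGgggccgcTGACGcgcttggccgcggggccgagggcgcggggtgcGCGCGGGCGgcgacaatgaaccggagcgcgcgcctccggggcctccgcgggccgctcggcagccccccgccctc
Nr4a3, chr4:48045055-48045152, plus strand: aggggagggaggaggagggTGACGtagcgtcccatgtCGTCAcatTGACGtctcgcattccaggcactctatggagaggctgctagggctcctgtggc
Egr2, chr10:67537619-67537868, plus strand: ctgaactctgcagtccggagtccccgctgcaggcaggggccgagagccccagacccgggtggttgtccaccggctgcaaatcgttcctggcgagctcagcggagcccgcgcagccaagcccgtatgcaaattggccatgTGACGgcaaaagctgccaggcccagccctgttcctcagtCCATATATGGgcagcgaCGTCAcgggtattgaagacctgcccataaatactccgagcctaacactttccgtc
Egr4, chr6:85513590-85513839, minus strand: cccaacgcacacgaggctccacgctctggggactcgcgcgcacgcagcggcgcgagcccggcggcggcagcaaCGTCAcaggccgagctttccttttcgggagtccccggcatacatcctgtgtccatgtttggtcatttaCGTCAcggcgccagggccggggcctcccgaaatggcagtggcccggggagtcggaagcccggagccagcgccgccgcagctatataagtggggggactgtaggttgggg

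The CRE core was the motif found in most members. It was present in 6 of the 7 with a window, with 4 copies each in Nr4a1, Nr4a2 and Nr4a3, 2 each in Egr2 and Egr4 and 1 in Nab1. Of 32851 mouse windows of the same length, 20.8% held at least 1 copy, 5.01% at least 2 and 0.231% at least 4. The CArG box was found in 1.63% of windows and, among the members, in 4 of the 5 windows of Egr2. The Egr2 windows that start at 67537619, 67537620 and 67537680 overlap and share the same box. The window that starts at 67537316 holds another. An EGR site, present in 5.55% of windows, was matched once in Nr4a1, once in Nr4a2 and 3 times in Nab1. The window of Nab2 held none of the 8 motifs. No member window held the full CRE (1.79% of all windows) or the NBRE (1.51%). The MEF2 box (3.19%) and TATA (13.6%) were in Nr4a2 alone among the members, and the NFAT core (23.4%) was in another window of Egr2. These are matches of letters, and binding was not measured.

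**Figure D1:**
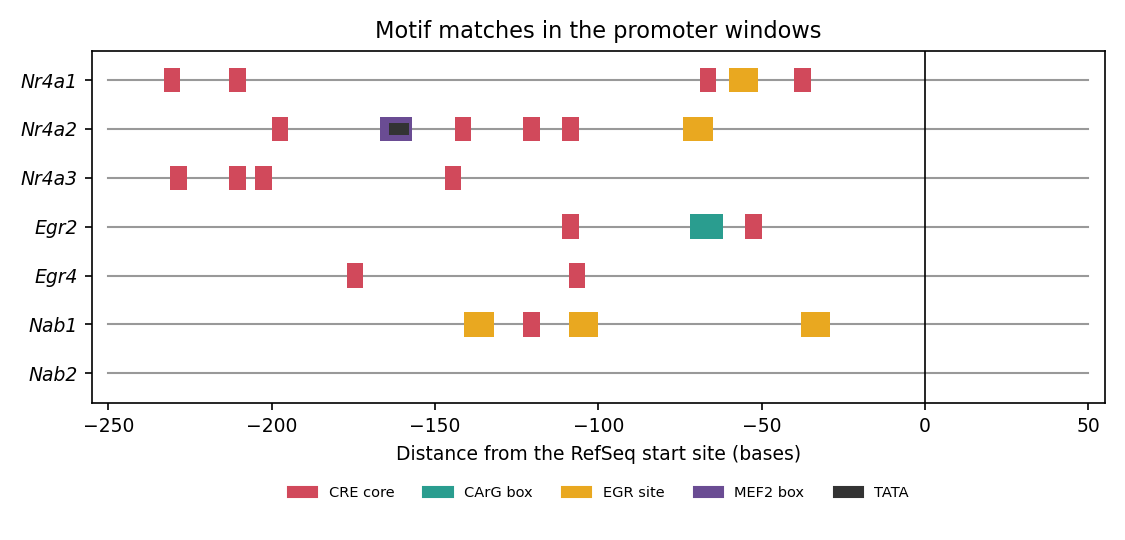
Positions of motif matches in the promoter windows of 7 members, from 250 bases before to 50 after the RefSeq start site (x axis, bases), one line per gene, with blocks coloured by motif. Nr4a1, Nr4a2 and Nr4a3 carry 4 CRE cores each, Egr2 carries a CArG box between 2 CRE cores, and Nab2 carries no match.

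Of the 8 genes with reads at rest, restimulation raised 7, all but Nab1, by the quasi-likelihood test of edgeR, with p-values adjusted over all genes tested by the method of Benjamini and Hochberg. In that test 38.4% of all tested genes rose, 39.1% fell and 77.5% were called either way. The same 7 also passed glmTreat, a test against a change of at least 2-fold, which 17.4% of all genes passed upward and 18.2% downward. For those 7 every stimulated library lay above every unstimulated one, as it did for 39.4% of all genes, against 40.4% the other way and 79.8% in either direction. The rises ran from 3.802-fold for the corepressor Nab2 to 116-fold for the receptor Nr4a3, and Egr4, which had no read at rest, is left out of these counts.

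**Figure D2:**
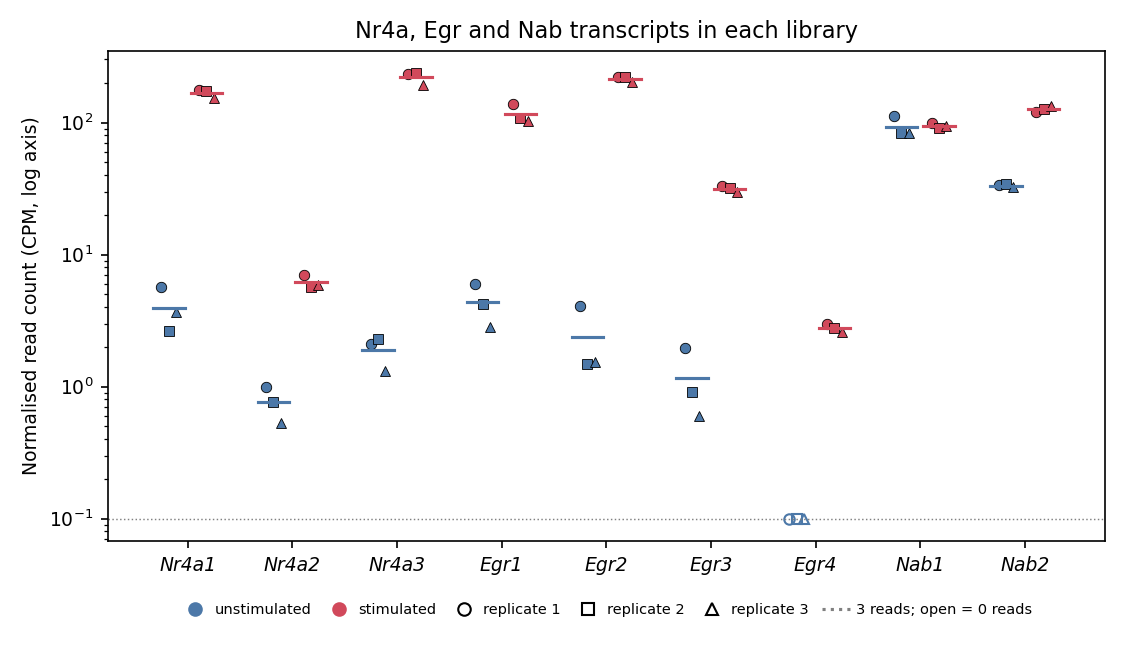
Normalised read counts (CPM, log axis) of the 9 genes in each of the 6 libraries, with points for libraries and bars for group means; Egr4 had 0 reads in the unstimulated libraries. The unstimulated and stimulated points are far apart for all Nr4a and Egr genes, apart by less for Nab2, and overlap for Nab1.

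Among the Nr4a receptors, Nr4a1 (also called Nur77, ENSMUSG00000023034, chromosome 15, 101254269 to 101274795) is widely used as a reporter of T cell receptor signalling. It stood at 5.63, 2.62 and 3.65 CPM in unstimulated replicates 1, 2 and 3 and at 176, 174 and 154 CPM in the stimulated ones. The stimulated libraries lay close together, while the resting ones differed 2.15-fold between replicate 1, the highest, and replicate 2, the lowest. The change was 42.3-fold (log2 fold change 5.40, SE 0.24; edgeR, adjusted p = 3.5e-07).

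Nr4a3 (NOR1, ENSMUSG00000028341, chromosome 4, 48045153 to 48086447), a close relative that can stand in for Nr4a1 in several settings, had 2.10, 2.31 and 1.32 CPM at rest and 233, 237 and 193 CPM after stimulation. Its level in CPM, which is not scaled by gene length, was below that of Nr4a1 in each resting library and above it in each stimulated one. Per kb of annotated exon it stayed below Nr4a1 in every library, at 38.96, 39.6 and 32.3 against 50.2, 49.5 and 43.8 after stimulation. It rose 116-fold (log2 fold change 6.85, SE 0.18; edgeR, adjusted p = 9.8e-09).

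Nr4a2 (NURR1, ENSMUSG00000026826, chromosome 2, 57106830 to 57124003), best known from dopamine neurons, was the rarest of the family in both groups. It was at 0.986, 0.759 and 0.534 CPM at rest, on 31, 24 and 17 reads, and at 6.95, 5.65 and 5.93 CPM after stimulation. The groups did not overlap, and the rise was 8.09-fold (log2 fold change 3.02, SE 0.24; edgeR, adjusted p = 2.8e-06).

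Among the Egr factors, Egr1 (ENSMUSG00000038418, chromosome 18, 34859823 to 34864984) is the best known member of the family and appears early after many stimuli. Its levels were 5.95, 4.24 and 2.83 CPM at rest and 139, 108 and 102 CPM after stimulation. Replicate 1 was the highest library in both groups, and the groups were far apart. The rise was 26.8-fold (log2 fold change 4.75, SE 0.26; edgeR, adjusted p = 1.6e-06).

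Egr2 (ENSMUSG00000037868, chromosome 10, 67535475 to 67542188), linked to T cell anergy together with Egr3, was at 4.105, 1.49 and 1.54 CPM at rest and at 223, 220.2 and 201 CPM after stimulation. The groups were far apart, although resting replicate 1 stood at 2.71 times the mean of the other two. The change was 90.3-fold (log2 fold change 6.50, SE 0.35; edgeR, adjusted p = 2.8e-06), 142-fold without unstimulated replicate 1 and 139-fold without both libraries of replicate 1.

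Egr3 (ENSMUSG00000033730, chromosome 14, 70077203 to 70082614) was at 1.97, 0.917 and 0.597 CPM at rest and 32.8, 32.1 and 29.7 CPM after stimulation. Resting replicate 1 was again above the others, and the groups did not overlap. It rose 27.1-fold (log2 fold change 4.76, SE 0.31; edgeR, adjusted p = 3.3e-06), or 41.5-fold without unstimulated replicate 1 and 40.8-fold without both libraries of that number.

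Egr4 (ENSMUSG00000071341, chromosome 6, 85511121 to 85513589), a member best known from neurons and germ cells, had 0 reads in the 3 resting libraries and 84, 79 and 75 reads in the stimulated ones, or 2.98, 2.77 and 2.58 CPM. It was the only member without a read at rest, and it was the least abundant in CPM after stimulation. Against a floor of 3 counts over the resting group it was at least 87.8-fold higher. Its test is not given, since the gene entered the fit only through the group in which it is high. Leaving out an unstimulated library lowered that bound, to 58.7-fold without replicate 1, 58.5-fold without replicate 2 and 58.4-fold without replicate 3, since the floor then rests on fewer reads.

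Several members shared their highest resting library. Unstimulated replicate 1 had the highest resting level of Nr4a1, Nr4a2, Egr1, Egr2, Egr3 and Nab1, and unstimulated replicate 2 that of Nr4a3 and Nab2. Among the 2313 genes that passed glmTreat upward, 54.2% were highest at rest in unstimulated replicate 1, against 37.5% of all tested genes. The coefficient of variation of Egr2 was 62.97% at rest and 5.55% after stimulation, and that of Egr3 was 61.95% and 5.09%. Summed over the 4 Egr genes, the level per length was 2.98, 1.59 and 1.22 CPM per kb at rest and 105, 97.4 and 89.9 CPM per kb after stimulation, highest in replicate 1 in both groups. The B cell marker sum was lowest in replicate 1 in both groups (1413 and 731 CPM). The sums of NK cell markers (20.3 and 113 CPM), mostly Eomes, and of myeloid markers (6.46 and 55.2 CPM) were highest there in both groups. The part of any of these in the Egr levels was not tested.

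Of the corepressors, Nab2 (ENSMUSG00000025402, chromosome 10, 127660918 to 127668568), known as an Egr-induced gene that feeds back on Egr proteins, was already well expressed at rest. It was at 33.4, 33.98 and 32.5 CPM at rest and at 119.8, 126 and 134 CPM after stimulation. The resting libraries lay close together, with a coefficient of variation of 2.196%, and the groups were apart. The change was 3.802-fold (log2 fold change 1.93, SE 0.069; edgeR, adjusted p = 2.4e-08). Exons of Nab2 overlap those of Stat6, Nemp1 and the antisense transcript Gm16229 on the other strand, and no source used here gives the strand setting of the counts, so reads of the overlap cannot be told apart. Stat6, a cytokine-activated transcription factor, rose (201 ± 9.46 at rest, 240.5 ± 6.75 CPM after), and Nemp1, of the inner nuclear membrane, fell (68.2 ± 4.32 at rest, 43.6 ± 0.428 CPM after). Gm16229 had 1 to 5 reads per library at rest and 12 to 16 after.

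Nab1 (ENSMUSG00000002881, chromosome 1, 52457294 to 52500679), the other corepressor, was at 111, 83.2 and 83.2 CPM at rest and at 99.8, 90.3 and 94.4 CPM after stimulation. The groups overlapped, with the stimulated libraries lying between the resting ones. Its log2 fold change was 0.035 (95% interval -0.23 to 0.30; edgeR, adjusted p = 0.791, and 0.0401 to 0.996 among the alternatives). The sign turned with library size alone (-0.10), with library sizes without the 20 most abundant genes (-0.12), and without unstimulated replicate 2 (-0.043), unstimulated replicate 3 (-0.049) or both libraries of replicate 2 (-0.00091) or 3 (-0.029). Without unstimulated replicate 1 the difference was 0.19 and passed the test (edgeR, adjusted p = 0.0401).

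Within each library the ratio of Nab2 to Nab1, in CPM per kb of annotated exon, was 0.419, 0.569 and 0.545 at rest and 1.67, 1.95 and 1.98 after stimulation. Nab1 was thus the more abundant corepressor in the 3 resting libraries and Nab2 in the 3 stimulated ones (exact permutation test, two-sided, p = 0.1). The ratio of the summed Egr level to the summed Nab level was 0.0775, 0.0499 and 0.0389 at rest and 1.62, 1.5 and 1.31 after. The Egr sum was below the Nab sum in every resting library and above it in every stimulated one (exact permutation test, two-sided, p = 0.1). With 3 libraries against 3, 0.1 is the smallest p this test can give. It was run on 9 such ratios and shares, with the Egr4 share counted in the adjustment. The Benjamini-Hochberg adjusted value is also 0.1 for each.

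The Nr4a family was made up differently in the groups. Nr4a1 held 73.0, 56.6 and 74.7% of the summed Nr4a level per kb at rest and 55.2, 54.7 and 56.5% after stimulation, so that the groups were separated only narrowly. Nr4a3 held 15.95, 29.2 and 15.8% at rest and 42.9, 43.8 and 41.7% after, a wider gap. The share of Nr4a2 was 11.6% ± 2.39 at rest and 1.77% ± 0.198 after.

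Among the Egr genes the leading transcript per kb of annotated exon differed between the groups. Egr1 was the largest part at rest, with 44.5, 59.4 and 51.7%, and held 29.4, 24.7 and 25.4% after stimulation. With the length of the longest transcript in place of all annotated exons, Egr2 already led Egr1 in unstimulated replicate 1. Egr2 held 40.5, 27.5 and 37.2% at rest and was the largest part after stimulation, with 62.2, 66.5 and 65.8%. The share of Egr3 was 13.1% ± 1.95 at rest and 7.35% ± 0.242 after, and Egr4 made up 1.33% ± 0.0113 of the stimulated sum. The Egr4 share was 0 at rest because the gene had no resting read, so its test is not given. Libraries of the groups did not overlap for the other Nr4a and Egr shares per kb of annotated exon. Each of these had p = 0.1 (exact permutation test, two-sided), the smallest it can give.

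**Figure D3:**
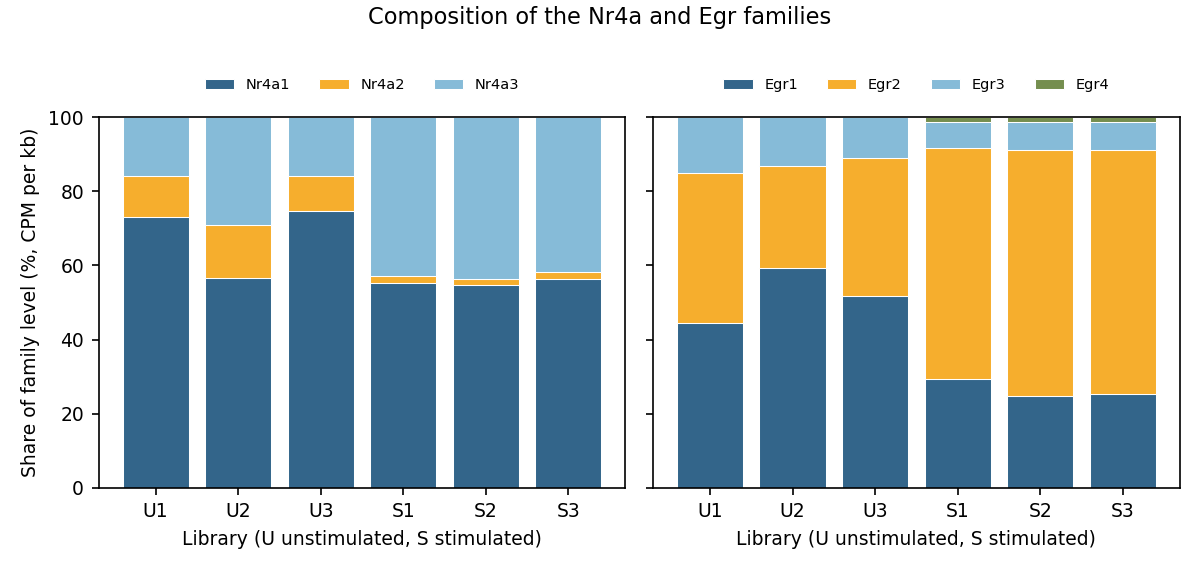
Share of each member in the summed level of its family (%, from CPM per kb of annotated exon) in each library, for the Nr4a genes and the Egr genes. Nr4a3 and Egr2 take larger shares in the 3 stimulated libraries, and Nr4a1, Nr4a2, Egr1 and Egr3 smaller ones.

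Ordered by CPM per kb, the resting levels were led by Nab1 (22.6 ± 3.95) and Nab2 (11.3 ± 0.249). Nr4a1 (1.13 ± 0.436), Egr1 (0.967 ± 0.349) and Egr2 (0.699 ± 0.4405) followed, each overlapping with its neighbour, and then Nr4a3 (0.319 ± 0.08697), Egr3 (0.264 ± 0.163) and Nr4a2 (0.187 ± 0.0557), which overlapped likewise. After stimulation the order was Egr2 (63.2 ± 3.51), Nr4a1 (47.8 ± 3.49), Nab2 (43.1 ± 2.395), Nr4a3 (36.9 ± 4.03), Egr1 (25.95 ± 4.399), Nab1 (23.1 ± 1.16), Egr3 (7.16 ± 0.364), Nr4a2 (1.52 ± 0.168) and Egr4 (1.29 ± 0.0915). There the libraries of Nr4a1 overlapped with those of Nab2, and those of Egr1 with those of Nab1, whereas the other neighbours were apart. Both corepressors thus lay above every factor at rest, and 4 factors lay above Nab1 in mean level after stimulation.

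By size of the fitted rise among 13314 genes, Nr4a3 ranked 37, Egr2 45, Nr4a1 103, Egr3 150 and Egr1 153. Nr4a2 ranked 489 and Nab2 1255. The fitted value of Egr4 depends on the prior count, so its rank is not given. The other ranks are taken among all tested genes, Egr4 included. Genes with few resting reads, such as Il3 (0.0318 ± 0.0551 CPM at rest), also have fitted values that depend on the prior count.

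**Figure D4:**
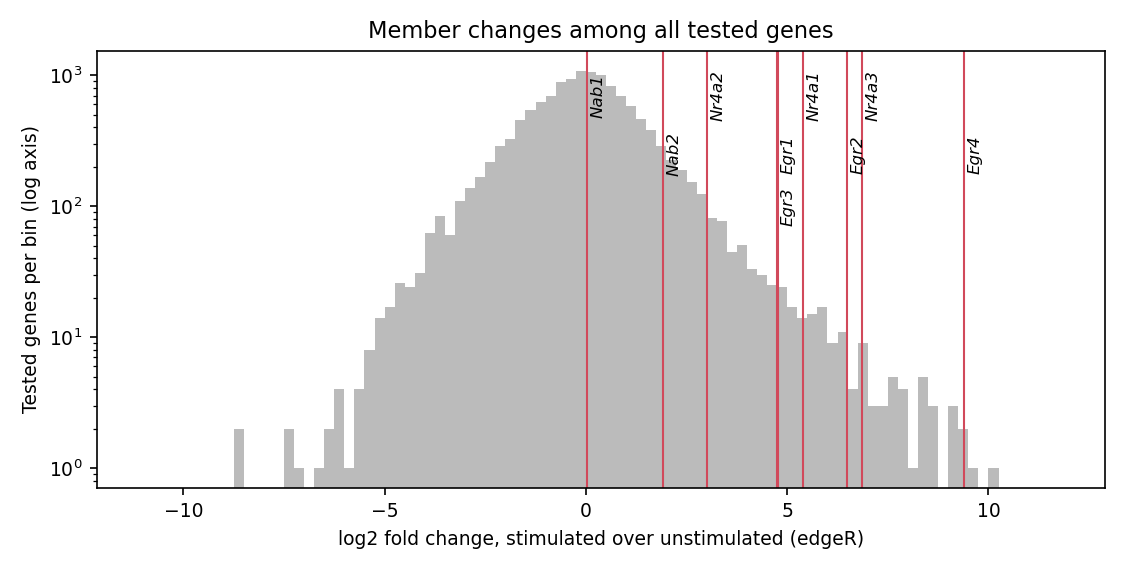
Distribution of log2 fold changes, stimulated over unstimulated, over 13314 tested genes, with lines at the 9 members. All Nr4a and Egr genes lie to the right of Nab2, and Nab1 lies near 0; the line of Egr4 is a fitted value that depends on the prior count because the gene had 0 resting reads.

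The genes most like each member were found by the distance between profiles of log2(CPM + 0.5) over the 6 libraries, each centred on its own mean, among 10664 protein-coding genes with a mean of at least 1 CPM. These profiles share the difference between the groups and this scale understates the change of low genes, so the distance mostly reads the size of that difference. Nearest to Nr4a1 was the folate enzyme Shmt1 (distance 0.342; 6.19 ± 1.34 at rest, 255 ± 20.6 CPM after). Nearest to Nr4a2 was the helicase Dhx29 (0.139) and to Nr4a3 the cytokine Ifng (0.569). Cd274, which encodes PD-L1 (14.7 ± 5.98 at rest, 321 ± 24.6 CPM after), was nearest to Egr3 (0.218) and next after the chemokine receptor Ccr8 (0.411) for Egr1 (0.432). Nearest to Egr2 was the amino acid transaminase Bcat1 (0.702; 1.78 ± 0.749 at rest, 128 ± 8.902 CPM after). The nuclear import receptor Ipo5 (124 ± 4.63 at rest, 806 ± 43.5 CPM after) was nearest to Egr4 (0.1096), Zxdb to Nab1 (0.151) and the ATPase Ruvbl2 to Nab2 (0.06595). The resting profile of Egr4 is set by the added 0.5, since the gene had 0 reads there. Its nearest genes therefore do not show the size of its rise. The next in order were Ncs1 and Zeb2 for Nr4a1, Etv6 and Larp1 for Nr4a2, Il3 and Cxcl10 for Nr4a3, Pus7 after Cd274 for Egr1, Crabp2 and Inhba for Egr2, and Zbtb32 and Slc19a1 for Egr3. They were Pum3 and Nip7 for Egr4, Mia2 and Dtd1 for Nab1, and Wdr46 and Ehd1 for Nab2.

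Transcripts of 3 groups of factors known to regulate these genes, by driving or repressing them, were counted beside all tested genes. Of all tested genes 38.4% rose and 39.1% fell. Serum response factor binds CArG boxes and was counted together with its partners. Of 6 tested, 3 rose and 3 fell, with a median log2 fold change of -0.0097, against -0.043 over all genes. Srf rose (79.7 ± 7.82 at rest, 138 ± 2.17 CPM after), as did its ETS partner Elk3 (66.7 ± 2.85 at rest, 129 ± 9.61 CPM after), while the partner Elk4 fell (113 ± 4.27 at rest, 57.9 ± 2.03 CPM after). The actin-regulated coactivator Mrtfa fell most (157 ± 3.99 at rest, 41.5 ± 1.39 CPM after), with a log2 fold change of -1.92. Elk1, also an ETS partner, rose by 0.40. Mrtfb, a relative of Mrtfa, changed by -0.41, a call lost without unstimulated replicate 2 (edgeR, adjusted p = 0.0599), stimulated replicate 3 (0.0647) or both libraries of replicate 2 (0.106), where the alternatives spanned 0.000806 to 0.106.

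MEF2 factors hold Nr4a1 silent together with class IIa histone deacetylases and Cabin1 until calcium signals release them. Of 8 tested, MEF2 factors and repressors counted together, 2 rose and 5 fell, with a median log2 fold change of -0.38. The deacetylase Hdac5 fell (129 ± 7.84 at rest, 10.9 ± 0.856 CPM after), as did Hdac9 (1.22 ± 0.234 at rest, 0.187 ± 0.0224 CPM after) and the factor Mef2c (7.31 ± 0.157 at rest, 3.22 ± 0.151 CPM after). Cabin1 rose (108 ± 9.07 at rest, 170.0 ± 6.58 CPM after), and so did Hdac4 (36.1 ± 3.901 at rest, 52.7 ± 1.73 CPM after).

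CREB factors and their coactivators act on CRE sites. Of 8 tested, 3 rose and 4 fell, with a median log2 fold change of -0.24. The coactivator Crtc1 rose (21.8 ± 0.939 at rest, 57.9 ± 2.63 CPM after), and the CREB relatives Atf1 (77.8 ± 0.635 at rest, 114 ± 4.36 CPM after) and Crem (18.9 ± 4.05 at rest, 31.02 ± 3.102 CPM after) rose by less. The coactivator Crtc3 fell (78.2 ± 1.31 at rest, 37.5 ± 2.299 CPM after), as did the acetyltransferase Ep300 (219 ± 37.3 at rest, 81.4 ± 7.25 CPM after) and Creb1 itself (139 ± 10.5 at rest, 87.7 ± 3.65 CPM after).

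Within the nuclear receptor superfamily Nr4a1 and Nr4a3 stood at the upper end. The table held 46 other receptor genes, of which 10 had 0 reads in all libraries. Of 26 tested, 10 rose and 12 fell, with a median log2 fold change of -0.10, where 38.4% of all genes rose and 39.1% fell. Over the alternatives 8 to 10 rose and 9 to 12 fell. Their log2 fold changes ran from -3.87 (Esrrb) to 3.11 (Nr6a1). Those of Nr4a1 and Nr4a3, 5.40 and 6.85, lay above that range and that of Nr4a2, 3.02, within it. Rxra, the retinoid X receptor with which Nr4a1 and Nr4a2 can pair, rose (19.7 ± 0.658 at rest, 157 ± 9.65 CPM after), as did the germ cell nuclear factor Nr6a1 (1.54 ± 0.106 at rest, 13.3 ± 1.55 CPM after) and the clock repressor Nr1d1 (2.62 ± 0.346 at rest, 10.03 ± 0.256 CPM after). The thyroid hormone receptor Thra fell (45.3 ± 4.22 at rest, 5.47 ± 0.7198 CPM after), and so did the retinoic acid receptor Rarg (10.4 ± 1.04 at rest, 2.41 ± 0.163 CPM after) and the glucocorticoid receptor Nr3c1 (111 ± 11.8 at rest, 51.7 ± 4.28 CPM after).

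**Figure D5:**
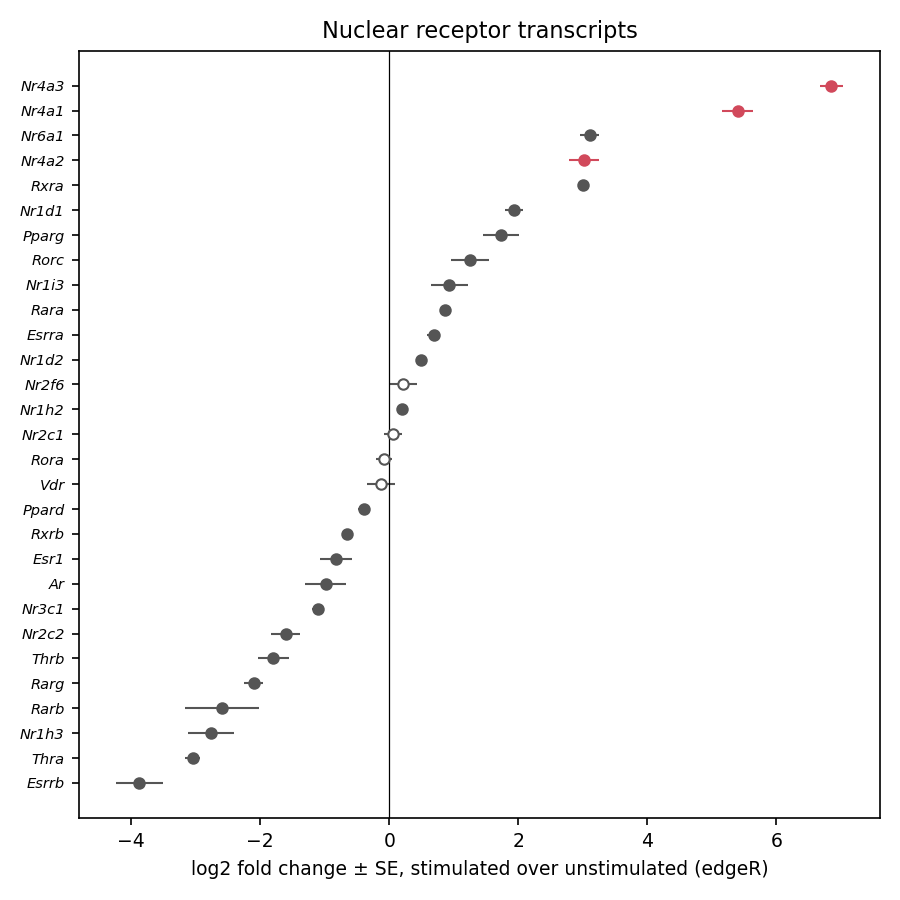
Log2 fold change, stimulated over unstimulated, of the 3 Nr4a genes and 26 other tested nuclear receptors, ordered by size, with SE as bars. Nr4a3 and Nr4a1 lie above all others, and Nr4a2 lies between Nr6a1 and Rxra.

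A list of genes reported elsewhere as Egr targets or as dependent on Egr factors was counted likewise. Of 18 tested, 8 rose and 5 fell, with a median log2 fold change of 0.44, where 38.4% of all genes rose and 39.1% fell. Over the alternatives 7 to 9 rose and 5 to 7 fell. The cytokine Tnf rose (4.87 ± 0.343 at rest, 346 ± 39.3 CPM after), as did the costimulatory receptor Tnfrsf9 (6.56 ± 0.903 at rest, 316 ± 18.4 CPM after) and the death ligand Fasl (2.87 ± 0.605 at rest, 23.9 ± 1.396 CPM after). Those that fell included the diacylglycerol kinases Dgka (874 ± 41.2 at rest, 65.05 ± 2.37 CPM after) and Dgkz (406 ± 19.1 at rest, 281 ± 16.9 CPM after), which dampen receptor signalling, and the zinc finger factor Zbtb16 (1.15 ± 0.114 at rest, 0.268 ± 0.0413 CPM after).

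A further list held genes reported as Nr4a targets or Nr4a-dependent. Of 12 tested, 9 rose and 3 fell, with a median log2 fold change of 1.30, where 38.4% of all genes rose and 39.1% fell. Over the alternatives 6 to 9 rose and 3 fell. The inhibitory receptors Havcr2 (TIM-3; 0.147 ± 0.0478 at rest, 18.2 ± 4.505 CPM after) and Pdcd1 (PD-1; 4.77 ± 1.24 at rest, 75.9 ± 9.48 CPM after) rose, as did the death-promoting Bcl2l11 (BIM; 69.5 ± 16.8 at rest, 256 ± 6.06 CPM after). Ctla4, an inhibitory receptor too, fell (207 ± 4.47 at rest, 81.1 ± 4.64 CPM after), as did the transcription factor Runx1 (93.1 ± 4.85 at rest, 55.8 ± 5.599 CPM after) and Tox, a factor of exhausted T cells (10.6 ± 1.53 at rest, 5.78 ± 0.279 CPM after). Whether Egr or Nr4a proteins act on any of these genes here was not measured.

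The last list held other immediate early genes. Of 22 tested, 18 rose and 3 fell, with a median log2 fold change of 1.76, where 38.4% of all genes rose and 39.1% fell. Over the alternatives 18 rose and 2 to 4 fell. The NF-kB inhibitor Nfkbia (90.7 ± 6.63 at rest, 441 ± 11.3 CPM after), the AP-1 subunit Fosl1 (0.559 ± 0.123 at rest, 21.1 ± 1.95 CPM after) and the proto-oncogene Myc (167 ± 25.5 at rest, 1340.4 ± 23.5 CPM after) rose. The antiproliferative gene Btg2 fell (296 ± 12.5 at rest, 33.5 ± 4.81 CPM after), as did the mRNA decay factor Zfp36 (97.1 ± 10.6 at rest, 30.7 ± 3.76 CPM after). Klf6, a zinc finger factor, changed by -0.39, a call lost without both libraries of replicate 2 (edgeR, adjusted p = 0.0954, and 0.00063 to 0.0954 among the alternatives).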

How the data were processed

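RNA was measured in 6 libraries, 3 per group. The deposited table gives whole-number read counts per gene, not normalized, with 1 column per library. The tools and build listed in the submitters' processing notes are STAR 2.5.2a, HTSeq, DESeq2 and GRCm38, with no role stated; the annotation release, strand setting and read filters have no stated value here. Symbols, positions and exon lengths (union of annotated exons) came from GENCODE M21, which matched 48058 of 48440 identifiers.

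Counts were tested with edgeR 4.0.16 in R 4.3.3: TMM scaling, filterByExpr, robust dispersions and the two-sided quasi-likelihood test on group, with Benjamini-Hochberg adjustment over 13314 genes and a threshold of 0.05. The alternatives were other scalings and filters, DESeq2 1.42.0, limma-voom (limma 3.58.1), a replicate block, each library or replicate number left out, and a threshold of 0.01. The pipeline was tested on simulated data.

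The design text calls the libraries biological replicates without saying whether they came from separate mice or cultures, so p-values measure only the spread between these samples, which may be technical. Deviations of same-numbered libraries from their group means correlated at 0.441, 0.132 and 0.472 for replicates 1, 2 and 3. The labels use the same replicate numbers in both groups without saying whether a number marks a shared mouse or culture. The group test and the exact tests do not use this pairing by number, and the replicate block is an alternative. No libraries of a group agreed within counting noise (dispersion index 9.41 to 37.6). Floors cover counting error only.

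The members and the gene lists were chosen with earlier results of these data known. All 9 members are named. From each list up to 3 genes that rose and up to 3 that fell are named, those of lowest p, and for each member its 3 nearest genes by profile, as ranked by the rule. Ighm, Cd14, Klrk1, Ncr1, Klrb1c, Klra8, Esrrb, Chd4 and the genes that overlap Nab2 are named outside it, with their values known. Lists are described by counts, without a set test.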

Additional observations from a re-analysis of the deposited data

How the results depend on the processing

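Over the 18 alternatives of the fit the rises of Nr4a1, Nr4a2, Nr4a3, Egr1, Egr2, Egr3 and Nab2 kept their direction and their call. Fold changes ran from 35.5 to 53.5 for Nr4a1, 6.99 to 9.51 for Nr4a2, 99.3 to 129 for Nr4a3, 22.6 to 32.9 for Egr1, 75.1 to 142 for Egr2, 21.6 to 41.5 for Egr3 and 3.42 to 3.93 for Nab2. The fitted log2 change of Egr4 was 9.39, and 7.46 with limma-voom. The change of Nab1 was -0.10 with library size alone and -0.12 with library sizes without the 20 most abundant genes. On leaving out libraries it ran from -0.049 to 0.19 and passed the test without unstimulated replicate 1; the cause was not tested. Library size alone moved the median of all genes from -0.043 to -0.18 and the share of calls that were higher from 49.5% to 43.96%. With the replicate block the change of Nab1 was 0.047, and the block changed no call of a member. The shifts in shares and ratios kept their direction under 8 alternatives (other lengths, or 1 library left out). Over these the p of the shares of Nr4a1 and Nr4a3 ran from 0.1 to 0.2 (exact permutation test, two-sided). It stayed at 0.1 for the ratios and the other shares, Egr4 left aside. The separation of the groups in the Nr4a1 share is thus given for lengths of annotated exon only. For the Nr4a3 share the libraries of the groups did not overlap with any of the lengths used. Those exact tests leave out the pairing, and over 3 pairs the smallest p would be 0.25. Depth limits Egr4 and Nr4a2, which had few or no resting reads.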

Other observations

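The NuRD complex is a nucleosome remodelling and deacetylase complex whose ATPase Chd4 binds Nab2. Of 13 tested, 5 rose and 6 fell, with a median log2 fold change of 0.14, where 38.4% of all genes rose and 39.1% fell. Over the alternatives 5 to 7 rose and 6 fell. The deacetylase Hdac2 rose (67.3 ± 1.74 at rest, 204 ± 4.28 CPM after), as did the histone-binding subunit Rbbp7 (179.9 ± 3.71 at rest, 431 ± 15.7 CPM after) and Mbd3 (68.1 ± 6.95 at rest, 184 ± 9.98 CPM after). The ATPase Chd3 fell (901 ± 81.96 at rest, 443 ± 28.9 CPM after), as did Mta3 (68.6 ± 3.81 at rest, 21.02 ± 1.61 CPM after) and the methyl-CpG-binding Mbd2 (164 ± 16.7 at rest, 98.2 ± 3.99 CPM after). Chd4 rose (436 ± 21.5 at rest, 669 ± 55.3 CPM after), and it was named after its values were seen, as the subunit that binds Nab2.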
